A study of Homo sapiens with 16 samples.

Results

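Box H/ACA small nucleolar RNAs and the small RNAs of Cajal bodies were examined in HT1080, a human fibrosarcoma cell line into which an inducible XIST transgene had been placed. Every gene whose symbol begins with SNORA or SCARNA and that is listed once in each of the deposited expression tables was taken, which gave 121 genes, 97 SNORA and 24 SCARNA, out of 22892 genes with a unique symbol in the HiSeq table and 25606 in the NextSeq table. Another 17 genes of these names are listed in only 1 of the tables and were not used. All cells carry a constitutive Tet repressor, and XIST cDNA sits as a single copy at an FRT site on 1p, 8p or 12q, each site being studied in clonal cells, so that doxycycline (DOX) turns XIST on. The 6 HiSeq libraries are 8p XIST without DOX, 8p XIST with 5 days of DOX (2 libraries), 1p XIST with DOX, 12q XIST with DOX, and the 1p site with a vector in place of XIST, also with DOX. The 4 NextSeq libraries are the 1p and the 12q XIST cells, each without and with 5 days of DOX. By the paper, the 12q cells come from another Tet repressor subclone of HT1080 than the 1p and 8p cells. Differences of 12q from the other sites therefore cannot be told apart from differences between these subclones. Except for 8p with DOX, every group is 1 library. The study's methods place the 8p DOX libraries in a pair of 8p clones and the library without DOX in a single one, and which DOX library shares its clone is not stated. The spread between the DOX libraries therefore holds any difference between clones, and in 8p the effect of DOX and of the clone cannot be fully told apart.

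H/ACA RNAs fold into hairpins that carry the H and ACA boxes, pair with a target RNA and place the pseudouridine synthase dyskerin (DKC1) on the uridine to be changed. SNORA RNAs mostly guide ribosomal RNA in the nucleolus, while SCARNA RNAs are held in Cajal bodies through a short CAB box and mostly guide the spliceosomal small nuclear RNAs. The SCARNA symbol is given by location and not by class: SCARNA2, SCARNA7, SCARNA9 and SCARNA17 are box C/D RNAs, and SCARNA5, SCARNA10 and SCARNA12 hold both kinds of box. In human cells nearly all are cut out of introns of other genes and trimmed, and the mature RNA has no poly(A) tail. All libraries here were made from poly(A)-selected RNA, so a value is what remained of an RNA that the selection is not meant to keep, and what carried these RNAs through was not tested.

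On the hg18 positions of the HiSeq table, 111 of the 121 genes lay within the span of a longer gene, their host, and 93 different hosts were found, of which 12 held more than 1 member. Ribosomal protein genes held 16 members and SNHG genes, non-coding hosts of small nucleolar RNAs, held 11. SNORA16A, SNORA44 and SNORA61 lie within SNHG12 on chromosome 1, at chr1:28780019-28780152, chr1:28779480-28779611 and chr1:28778863-28778992. SNORA4, SNORA63 and SNORA81 lie within EIF4A2 on chromosome 3, a gene for an RNA helicase of translation initiation. SNORA36A and SNORA56 lie within DKC1 itself on the X chromosome. SNORA40, SNORA18, SNORA8, SNORA1 and SNORA32 have no host in the table and lie 695 to 4832 bases outside the listed span of TAF1D, a gene for a subunit of an RNA polymerase I initiation factor. Members were short, 121 to 421 bases, with a median of 134 bases for SNORA and 155 bases for SCARNA.

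Some members also hold a microRNA hairpin, and a read from the shared bases can be given to either name. RefSeq (GRCh38.p14) matched 118 members by symbol, and 6 of them overlapped a hairpin. Of these, 3 hairpins are shown, and how far the values of their members are touched by such sharing was not tested. In the SNORA36B and SNORA36A hairpins, which belong to related RNAs on different chromosomes, capitals mark the longest run of bases that both share, 17 bases. That run is shorter than a HiSeq read of 50 bases. In the SNORA81 hairpin capitals mark the 102 of 106 bases that lie inside the small nucleolar RNA.
SNORA36B, hairpin MIR664A, chr1:220200538-220200619, minus strand: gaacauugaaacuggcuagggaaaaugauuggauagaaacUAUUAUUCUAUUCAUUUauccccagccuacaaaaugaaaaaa
SNORA36A, hairpin MIR664B, chrX:154768596-154768656, plus strand: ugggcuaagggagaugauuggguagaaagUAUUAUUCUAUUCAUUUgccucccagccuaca
SNORA81, hairpin MIR1248, chr3:186786672-186786777, plus strand: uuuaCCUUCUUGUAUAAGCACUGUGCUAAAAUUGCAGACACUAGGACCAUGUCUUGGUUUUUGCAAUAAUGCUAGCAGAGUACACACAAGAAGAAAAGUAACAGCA

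The cells carried the marker genes of a mesenchymal line. The 7 mesenchymal markers checked, among them VIM and FN1, ranged from 19.0 to 2978 FPKM over the 10 libraries. The 5 epithelial and blood markers ranged from 0 to 2.38 FPKM. In the NextSeq 12q DOX library EPCAM was at 2.38 and CDH1 at 1.38 FPKM. In the other libraries these 5 markers did not exceed 0.0497 FPKM. What lies behind the epithelial values was not tested, and that library also gives all NextSeq 12q DOX values below. XIST was 3.38 FPKM in 8p without DOX against 99.0 and 89.7 FPKM with DOX, 23.8 in 1p XIST, 61.9 in 12q XIST and 0.0705 in the 1p vector library. On NextSeq it went from 4.17 to 22.0 FPKM in 1p and from 3.75 to 67.6 FPKM in 12q. Between 10975 and 11399 genes had at least 1 FPKM in a library. The 1p vector library stood apart on HiSeq: 42.9 % of the 11346 genes compared were lower in it than in each of the 5 others, and the median gene was lower by 0.27 on the log2(FPKM + 1) scale.

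The HiSeq values of these short RNAs could be turned back into fragments. For members of equal length the FPKM values of a library were whole multiples of 1 step, which fell smoothly with length. Among the 103 members of 121 to 154 bases, 430 of the 448 values of up to 50 fragments were whole within 0.05 fragments (96.0 %). At 132 bases 1 fragment was worth 0.811 to 0.961 FPKM, and the depth of the libraries relative to 8p without DOX was 0.991 to 1.17, so that they differed little in depth. The median value was 5 fragments, 101 of the 618 values were 0, 213 were 1 to 5 fragments and 66 were over 50. In 49 members no library held more than 10 fragments. Values that were not whole came from 6 members. SNORA17 and SNORA43 lie together in SNHG7 and SNORA7A has a near copy, SNORA7B. SNORA36B was off in 12q XIST alone, at 3.76 FPKM or 3.65 steps, and its hairpin gene MIR664 was listed at 2.72 FPKM in that library. SNORA34 was off in 8p without DOX, where the hairpin gene MIR1291 was listed at 3.89 FPKM. SNORA34 is not among the 6 members that the RefSeq match placed over a hairpin, so that match does not show the 2 to overlap. The remaining one, SNORA62, missed a whole number in 8p DOX 2, at 49.1 steps. The NextSeq values gave no common step, and their depth is unknown.

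Most members were detected on HiSeq and fewer on NextSeq. A mean of at least 1 FPKM was reached by 78 SNORA and 22 SCARNA on HiSeq, and by 61 SNORA and 8 SCARNA on NextSeq. On HiSeq 90 members were above 0 in all 6 libraries, against 21 in all 4 libraries on NextSeq. SNORA11C, SNORA11D, SNORA11E, SNORA35, SNORA70C, SNORA70D and SNORA70G were listed at 0 in all 10 libraries. Several of these are copies of SNORA11 or SNORA70, and reads that fit several copies can be lost or divided in counting.

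A few members made up much of the HiSeq signal. SNORA8 had the highest mean, with 173.6 FPKM in 8p without DOX, 234.3 and 190.1 in 8p with DOX, 160.8 in 1p XIST, 158.2 in 12q XIST and 503.6 in the 1p vector library. SNORA16A followed with 155.4 FPKM, then 128.6 and 133.9, 85.1, 79.0 and 389.8 FPKM in the same order. In both the vector library was the highest by far. SNORA40 had 153.5 FPKM, then 180.7 and 157.2, 84.2, 172.2 and 168.2 FPKM, with the vector library inside the range of the others and 1p XIST the lowest. These values rested on 86 to 647 fragments each. SCARNA22, the highest of the Cajal body RNAs and set in WHSC1, had 80.9 FPKM in 8p without DOX, 56.3 and 40.7 with DOX, 38.1 in 1p XIST, 50.1 in 12q XIST and 47.1 in the vector library. The remaining members of the 10 highest, SNORA61, SNORA48, SNORA70, SNORA63, SNORA10 and SNORA44, had means of 49.3 to 86.6 FPKM.

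**Figure D1:**
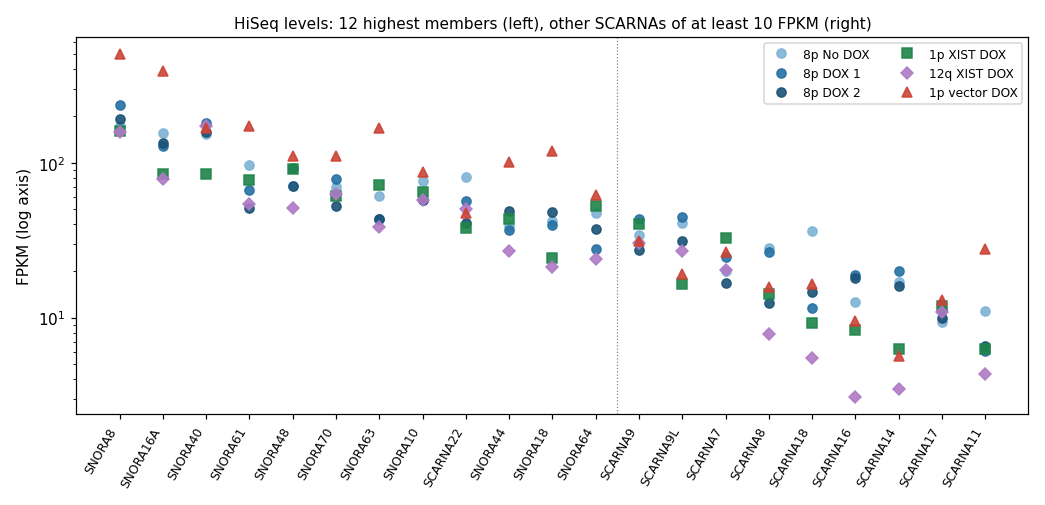
FPKM on a log axis in the 6 HiSeq libraries for the 12 members with the highest mean (left of the dotted line) and for the other SCARNAs with a mean of at least 10 FPKM (right); each symbol is 1 library. The red triangles of the 1p vector library lie on top for SNORA8, SNORA16A, SNORA61 and SNORA63, but within the range of the others for SCARNA22, SCARNA14 and SCARNA9L.

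SNORA levels were higher in the 1p vector library than in any other HiSeq library. Summed over the 97 SNORA genes the library held 3030.2 FPKM, against 1176 to 1591 FPKM in the 5 others. The sum of the 24 SCARNA genes was 276.6 FPKM, inside the range of 203.0 to 344.0 FPKM of the others. Without SNORA8 and SNORA16A the SNORA sum was still 2137 FPKM against 938.3 to 1262 FPKM. Of the 76 SNORA genes with a mean of at least 1 FPKM over the 5 other libraries, 46 were higher in the vector library than in each of them, or 60.5 %, beside 7.66 % of all genes. Among SCARNA genes the count was 6 of 22, or 27.3 %. With at least 2-fold over the highest other library the count was 15 SNORA, or 19.7 %, and 2 SCARNA, or 9.09 %, beside 0.476 % of all genes. The 1 SNORA below all 5 others compares with 42.9 % of all genes. As 1 library stands for the vector cells, these are descriptions of that library, with no test, and a difference between cells cannot be told apart from one between library preparations.

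The excess differed between members. SNORA13, within EPB41L4A-AS1, had 33.7 FPKM in the vector library and 2.51 to 7.44 in the others, from 38 fragments against 3 to 8. SNORA51, within NOP56, had 49.8 FPKM against 3.43 to 15.7. SNORA63 had 167.0 FPKM against 38.6 to 71.9. The ratio to the other libraries was 6.47, 5.51 and 3.24, with counting intervals of 3.91 to 10.8 for SNORA13, 3.69 to 8.23 for SNORA51 and 2.70 to 3.89 for SNORA63. SNORA10, within RPS2, was at 86.8 against 57.0 to 76.3 FPKM, a ratio of 1.39 with an interval of 1.10 to 1.74. For SNORA40 the ratio was 1.13 with an interval of 0.947 to 1.34, which includes equal levels. SCARNA11, within CHD4, and SCARNA1, within PPP1R8, were the SCARNAs at least 2-fold above every other library, at 27.6 against 4.30 to 11.0 FPKM and 17.0 against 1.53 to 6.26 FPKM. Over the 76 SNORA genes with whole fragments in every library, the 95 % interval of the ratio, exact for counts and covering counting error only, lay above 1 for 32 in the vector library and below 1 for 0. In the 5 other libraries, each set against the rest in the same way, it lay above 1 for 0 to 8 SNORA genes. It lay below 1 for 16 in 12q XIST, 13 in 8p DOX 1, 10 in 8p DOX 2, 8 in 1p XIST and 3 in 8p without DOX, where the libraries compared with include the vector library and its high SNORA values.

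The hosts did not stand as high. For 70 SNORA genes whose host also passed the filter, 66 had a higher log2 difference between the vector library and the mean of the 5 others than their host. The median was 0.82 for these SNORA genes and -0.20 for their hosts, and 29 SNORA genes but 0 hosts reached a difference of 1. For the 19 SCARNA pairs, 10 members lay above their host, with medians of 0.09 and -0.03. SNHG12, the host of SNORA16A, SNORA44 and SNORA61, was at 17.0 FPKM in the vector library against 14.4 to 21.9 in the others, and NOP56, the host of SNORA51, was at 46.1 against 46.3 to 109.6 FPKM. Of 70 hosts of SNORA genes 10 were above all 5 others, or 14.3 %, beside 7.66 % of all genes. Among them were EIF4A2, the host of SNORA63, at 231.9 FPKM against 97.2 to 170.1, and EPB41L4A-AS1, the host of SNORA13, at 7.64 against 5.97 to 7.12.

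Among other RNAs without a poly(A) tail, several were also above all 5 others in the vector library, and the rest were not, beside 7.66 % of all genes above. RNU12, a small nuclear RNA of the minor spliceosome, was at 617.4 FPKM there and at 32.3 to 151.1 FPKM in the others, and RNU4ATAC, of the same spliceosome, at 135.7 against 13.1 to 52.1 FPKM. RMRP, the RNA of RNase MRP, was at 658.1 against 321.4 to 550.8 FPKM. RNU6ATAC, at 172.5 against 42.1 to 139.5 FPKM, and VTRNA1-1, at 78.0 against 10.8 to 60.2 FPKM, were also above all 5 others. RPPH1, the RNA of RNase P, at 27.3 FPKM, and RNU11, at 69.5 FPKM, lay within the range of the others. So did VTRNA1-2, at 11.9 FPKM, and RNU86, at 134.2 FPKM. VTRNA1-3 was below all 5 others, at 27.7 against 41.7 to 125.3 FPKM. These are the 10 RNAs of this list tested on HiSeq. Box C/D RNAs (SNORD) summed to 16098 FPKM against 9981 to 16506, with 19.0 % of 126 genes above all 5 others, and the replication-dependent histone genes to 669.6 FPKM against 335.3 to 739.2. Their part in the SNORA values was not tested.

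**Figure D2:**
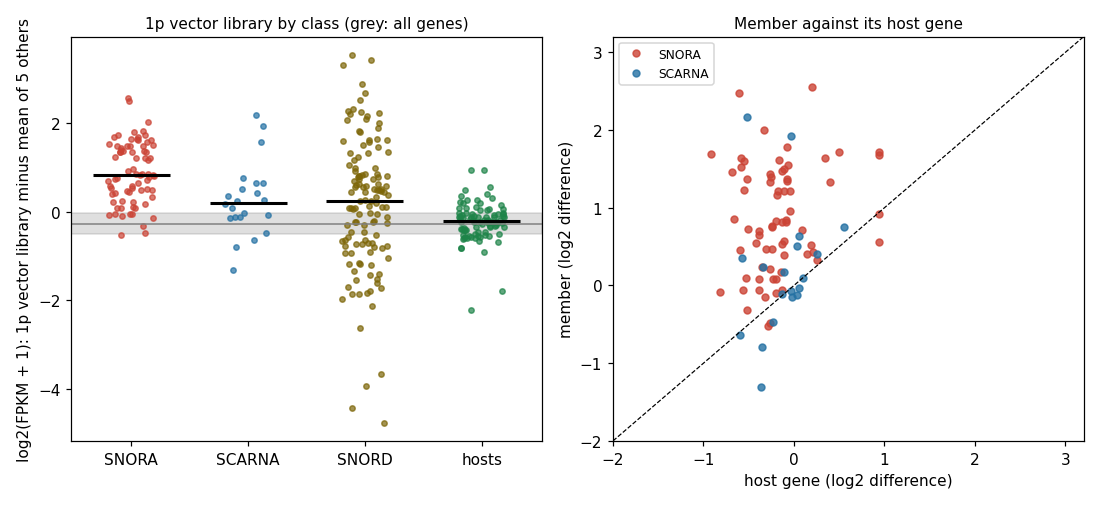
Left, the difference between the 1p vector library and the mean of the 5 other HiSeq libraries on the log2(FPKM + 1) scale, 1 point a gene, with black lines at class medians (0.83 for SNORA, 0.20 for SCARNA, 0.24 for SNORD) and a grey band and line for the quartiles and the median (-0.27) of all genes. Right, the same difference for each member against its host gene, with the dashed line at equal differences; 66 of 70 SNORA points lie above it.

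Members varied more between libraries than most genes of their tables. The SD of log2(FPKM + 1) over the 6 HiSeq libraries had a median of 0.64 for the 78 SNORA and 0.68 for the 22 SCARNA genes with a mean of at least 1 FPKM, against 0.28 for the 11357 genes of the table. SNORD genes, at 1.17, and other genes of at most 300 bases, at 1.25, varied still more. At a mean of 10 FPKM or more, where 0 is no longer met in members, the 42 members had a median SD of 0.64 and all genes 0.28. Without the vector library the median over members was 0.53. The 8p DOX libraries, the only replicate pair, differed by a median of 0.40 for members and 0.07 for all genes. Several of the steadiest members on HiSeq were box C/D or mixed Cajal body RNAs of 270 to 421 bases: SCARNA17 (SD 0.16), SCARNA12 (0.25) and SCARNA10 (0.25). SCARNA17 had 9.38, 11.2, 9.91, 11.9, 10.8 and 13.0 FPKM in 8p without DOX, 8p DOX 1, 8p DOX 2, 1p XIST, 12q XIST and the vector library. The other members of the 5 with the smallest SD were SNORA5C (0.20) and SNORA10 (0.25). The largest SDs were those of SCARNA23 (1.27), SNORA51 (1.20), SCARNA15 (1.19), SNORA9 (1.15) and SNORA13 (1.14). SNORA9, within SNHG15, had 8 fragments in 8p without DOX, 0 and 4 in the DOX pair, 9 in 1p XIST, 2 in 12q XIST and 3 in the vector library, so that replicates differed as much as conditions.

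On NextSeq the median SD over the 4 libraries was 1.43 for 61 SNORA and 1.08 for 8 SCARNA genes, against 0.17 for all 11397 genes, and 73.9 % of the 69 members tested were at 0 in at least 1 library. In the NextSeq libraries the lowest value above 1 FPKM among the members of 121 to 154 bases was 2.46 to 4.33 FPKM, and 63 to 74 of these 103 members were at 0 in a library. SNORA48 (SD 0.25), SCARNA12 (0.24), SNORA40 (0.38), SNORA53 (0.38) and SNORA72 (0.40) were the steadiest. SNORA61 (2.48), SNORA16A (2.29), SNORA32 (2.14), SNORA7A (2.05) and SNORA24 (2.04) were the most variable, each being listed at 0 in at least 1 library.

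**Figure D3:**
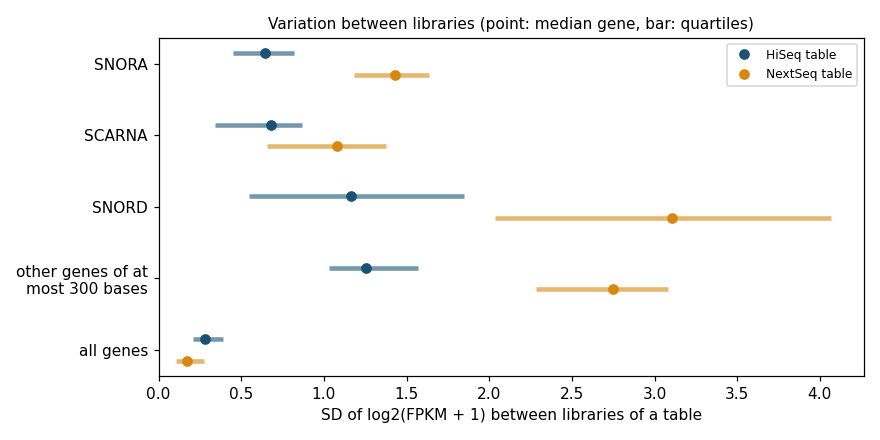
SD of log2(FPKM + 1) between the 6 HiSeq libraries (blue) and between the 4 NextSeq libraries (orange), for genes with a mean of at least 1 FPKM; points are medians over genes and bars run from the lower to the upper quartile. SNORA (0.64 and 1.43) and SCARNA (0.68 and 1.08) lie above all genes (0.28 and 0.17) and below SNORD (1.17 and 3.10).

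The effect of DOX in 8p cells was asked by comparing the 2 DOX libraries with the library without DOX. At least 1 of the DOX libraries is from another clone. In 8 members that fell, the fall was larger than the spread of the replicate pair by limma and larger than counting error. SNORA27, listed within RPL21P28, had 49.9 FPKM without DOX and 15.0 and 10.4 FPKM with DOX, from 45, 15 and 11 fragments. SCARNA18, within TMEM167A, had 36.3 FPKM without and 11.5 and 14.7 FPKM with DOX, from 40, 14 and 19 fragments. SNORA20, within the chaperonin gene TCP1, had 24.8 FPKM without and 6.87 and 8.92 FPKM with DOX, from 26, 8 and 11 fragments. Both DOX libraries of each lay far below the library without DOX. On the log2(FPKM + 1) scale SNORA27 fell by 1.92 ± 0.22 (SE; adjusted p = 0.0171, limma), SNORA20 by 1.54 ± 0.16 (adjusted p = 0.0162, limma) and SCARNA18 by 1.42 ± 0.16 (adjusted p = 0.0166, limma). The counting intervals of the ratio of DOX to No DOX were 0.149 to 0.418, 0.167 to 0.601 and 0.221 to 0.588. SNORA21 (17, 9 and 6 fragments), SNORA4 (28, 14 and 18), SNORA33 (29, 14 and 21), SNORA61 (97, 74 and 60) and SNORA63 (69, 54 and 57) also fell with intervals below 1.

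Over all members the share of calls was not above that of the table. Of 100 members tested 24 passed an adjusted p of 0.05 in limma, or 24.0 %, beside 31.1 % of the 11357 genes tested. They were 18 that fell, or 18.0 %, beside 19.8 % of all genes, and 6 that rose, beside 11.3 %. The median difference was -0.11 for members and -0.06 for all genes. With no filter on low values limma called 0 members and 15 genes. The only residual degree of freedom is the DOX pair, and where those values happened to lie close, small numbers were called. SNORA77 and SNORA56 were called higher from 0 fragments without DOX, which allows up to 3, and 1 fragment in each DOX library. Of the 21 called members with a length in the range, 9 had at most 10 fragments in each of the 3 libraries. Among 87 members with whole fragments the counting interval of the DOX to No DOX ratio left out 1 for 13, lower in 12 and higher in SNORA8 (ratio 1.22, interval 1.04 to 1.43). Between the 2 DOX libraries it left out 1 for 6 of 86. SCARNA22 fell to a ratio of 0.596 with an interval of 0.435 to 0.822 without being called by limma, its DOX values of 56.3 and 40.7 FPKM being further apart.

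The other calls were smaller or rested on few fragments. SNORA10 fell by 0.40 ± 0.07 (SE; adjusted p = 0.0268, limma), from 82 to 68 and 73 fragments, and SNORA6, within RPSA, by 0.42 ± 0.08 (adjusted p = 0.0288, limma). Their counting intervals also included 1, at 0.570 to 1.001 for SNORA10 and 0.383 to 1.41 for SNORA6. SCARNA4 (8, 4 and 4 fragments), SCARNA11 (13, 8 and 9), SNORA32 (8, 5 and 5), SNORA24 (11, 8 and 7), SNORA71D (8, 4 and 5), SNORA5A (4, 2 and 3) and SNORA72 (4, 2 and 3) were called lower with counting intervals that included 1. SNORA23, which is longer, was called lower at 6.12 FPKM without DOX and 4.25 and 3.70 with DOX. SNORA5C was called higher from 3, 5 and 5 fragments. SCARNA16 was called higher at 12.5 FPKM without DOX and 18.7 and 18.0 with DOX, and the box C/D RNA SCARNA2 at 3.67 against 5.04 and 5.21 FPKM. SNORA17 was called higher, but its values are not whole fragments and it shares SNHG7 with SNORA43.

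**Figure D4:**
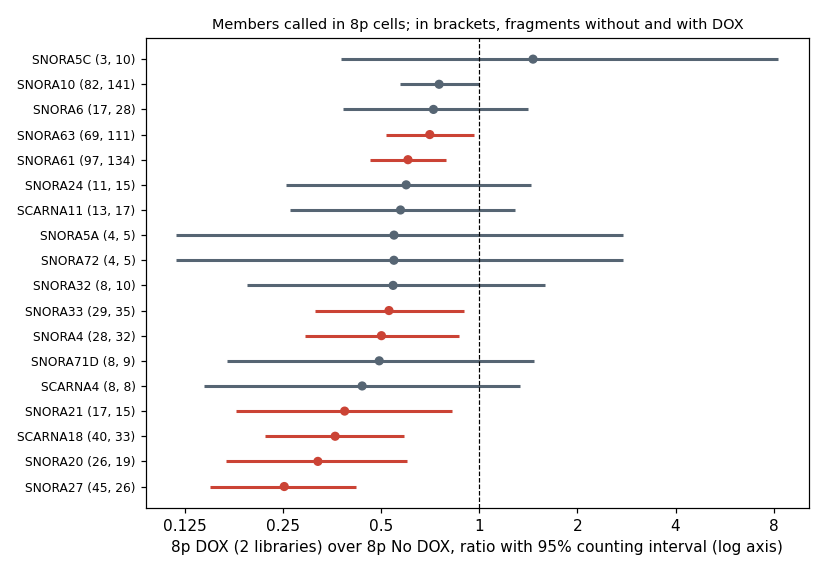
Ratio of the 2 8p DOX libraries, summed, to the 8p library without DOX for 18 of the members called by limma, on a log axis, with 95 % intervals for counting error; the numbers in brackets are fragments without DOX and in both DOX libraries together. Intervals in red, from SNORA27 at 0.252 to SNORA63 at 0.705, lie below 1.

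Of the 18 members that fell, 17 had a tested host, and the host fell in 3, rose in 2 and was not called in 12. The 3 of 17 that fell are not above the share of all genes that fell, 19.8 %, and 11.3 % of all genes rose. SNHG12 fell with SNORA61 (host log2 difference -0.50, adjusted p = 0.0283, limma), TCP1 with SNORA20 (-0.48, adjusted p = 0.0266, limma) and LOC388796 with SNORA71D (-0.48, adjusted p = 0.0314, limma). KIAA0907, the host of SCARNA4, rose (0.67, adjusted p = 0.0180, limma) and so did SNHG8, the host of SNORA24 (0.34, adjusted p = 0.0398, limma). TMEM167A, the host of SCARNA18, was at 18.3 FPKM without and 18.3 and 17.5 FPKM with DOX while SCARNA18 fell. Over all 90 hosts tested 34 were called, or 37.8 %, 28 of them lower, beside 31.1 % of all genes called and 19.8 % called lower.

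Of the 4 core proteins that bind H/ACA RNAs, 2 fell in the same 8p comparison, where 19.8 % of all genes fell. DKC1 was at 52.4 FPKM without DOX and 31.7 and 29.7 FPKM with DOX (log2 difference -0.75 ± 0.08 SE, adjusted p = 0.0162, limma), and GAR1, also of the core, at 28.5 against 20.8 and 21.3 FPKM (-0.42 ± 0.07, adjusted p = 0.0254, limma). The other core proteins, NHP2 and NOP10, did not pass, with differences of -0.20 and -0.29. Of 6 assembly factors SHQ1 fell (-0.40), and of 9 tested Cajal body genes 6 fell, namely COIL, WRAP53, GEMIN4, TOE1, PARN and NOLC1, beside 19.8 % of all genes. WRAP53, which binds the CAB box, went from 11.2 to 6.13 and 5.90 FPKM. SMN1 and SMN2 were not among the unique symbols. Of the core proteins of the C/D class NOP56 (-1.18) and NOP58 (-0.75) fell. On NextSeq 0 of the tested genes of these lists was called with DOX.

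DOX in 1p and 12q cells (NextSeq) was tested by limma with the integration site as a term. This fit called 0 of 69 members, beside 1 of the 11397 genes tested (0.00877 %). XIST itself, higher with DOX at both sites, was not called either (log2 difference 3.00 ± 0.405 SE, adjusted p = 0.702, limma). The lack of calls therefore does not show that levels were unchanged. Among members 9 had an unadjusted p under 0.05 in limma, 13.0 % beside 6.55 % of all genes. SNORA1, beside TAF1D, came closest: it was at 0 FPKM in both libraries without DOX and at 5.17 and 5.18 FPKM with DOX in 1p and 12q (log2 difference 2.63 ± 0.14 SE, adjusted p = 0.0902, limma). SNORA5C was likewise at 0 and 0 without DOX and at 7.08 and 3.53 with DOX. SCARNA16 was at 4.46 FPKM without and 1.20 FPKM with DOX in 1p, and at 4.07 and 1.18 FPKM in 12q, the same direction at both sites (-1.26 ± 0.12 SE, adjusted p = 0.550, limma). It had been called higher with DOX in 8p cells, in a table made and normalised separately. SNORA8 was at 15.7 and 20.4 FPKM in 1p and at 20.3 and 40.2 FPKM in 12q, without and with DOX. SNORA4 was at 44.2 and 17.0 FPKM in 1p and at 38.2 and 28.5 FPKM in 12q. The values of SNORA1 and SNORA5C are near the lowest seen above 1 FPKM, and how many fragments lie behind them is unknown.

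Among the highest NextSeq members, SNORA63 had 52.6 FPKM without and 25.4 with DOX in 1p, and 77.5 and 101.3 FPKM in 12q, so that its direction differed between the sites. SNORA40 had 37.0 and 37.4 FPKM in 1p and 61.8 and 56.2 FPKM in 12q. SNORA70, within RPL10, had 81.9 and 44.7 FPKM in 1p and 20.6 and 31.9 FPKM in 12q. Both 12q values of SNORA40 lay above both 1p values. SNORA10 had 31.8 and 45.1 FPKM in 1p and 39.3 and 6.06 FPKM in 12q, and SCARNA22 had 25.6 and 16.9 FPKM in 1p and 10.4 and 47.7 FPKM in 12q. SNORA18 and SNORA52 lay between 5.91 and 45.3 FPKM in the 4 libraries. The median difference with DOX over the 69 members was 0.12, with 40 above 0 and 29 below, against -0.01 over all genes. It was 0.01 in 1p and 0.58 in 12q taken alone, and turned to -0.09 with a mean of at least 5 FPKM as the filter.

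**Figure D5:**
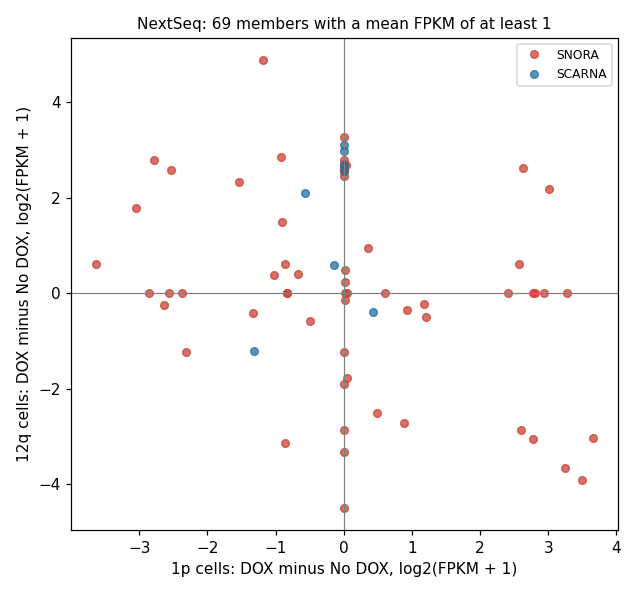
Difference of DOX from No DOX on the log2(FPKM + 1) scale in 1p cells (horizontal) and in 12q cells (vertical) for the 69 members with a mean of at least 1 FPKM on NextSeq, 1 library a condition. Points fill all quadrants; members listed at 0 in both libraries of a site lie on an axis line.

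Sites were compared by setting the 3 libraries of 8p cells, from more than 1 clone, against the 3 other HiSeq libraries. The groups differ in site, in transgene and in the one library without DOX, and 12q XIST also in its parent subclone. SCARNA14, within TIPIN on chromosome 15, was the 1 member called of 100 (1.00 %, beside 5.17 % of the 11357 genes), with 1 member higher beside 4.1 % of all genes and 0 lower beside 1.07 %. It had 17.0, 19.9 and 15.9 FPKM in 8p without DOX and in the 8p DOX pair, against 6.26 in 1p XIST, 5.68 in the vector library and 3.44 in 12q XIST, from 20, 26, 22, 8, 7 and 4 fragments. The groups did not overlap, and the log2 difference was 1.63 ± 0.21 (SE, n = 3 and 3; adjusted p = 0.0132, limma). The call was lost without 8p DOX 1 (1.54, adjusted p = 0.0718, limma) or without 8p DOX 2 (1.69, adjusted p = 0.0584, limma). While 2 members were called without the vector library and 11 without 12q XIST, the number of all genes called also changed widely as single libraries were left out. These member counts are therefore not a result about members alone. TIPIN, a gene for a replication fork protein, was at 17.9, 7.14 and 6.48 FPKM in the 8p libraries and 12.4, 8.03 and 12.2 FPKM in the others, with a difference of -0.16 ± 0.36 (SE; adjusted p = 0.803, limma), so that its order over the libraries was not that of SCARNA14.

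Unadjusted, 16 of 100 members passed 0.05 in limma, or 16.0 %, beside 29.0 % of all genes, so members passed less often. Of the members 6 were higher and 10 lower in 8p, and of the 11357 genes 2778 were higher and 511 lower. SCARNA9L, an X-linked near copy of SCARNA9 within EIF1AX, had 40.5, 44.8 and 31.2 FPKM in 8p against 16.4, 19.1 and 26.8 FPKM (0.89 ± 0.22 SE, adjusted p = 0.0641, limma), and reads may be divided between it and SCARNA9. SNORA78, within SNHG9, had 3.24, 5.83 and 3.68 FPKM in 8p against 16.6, 22.4 and 7.58 FPKM (-1.57 ± 0.37 SE, adjusted p = 0.0569, limma). The median difference was -0.17 over members and 0.22 over all genes, and over members it turned to 0.09 without the vector library. TERC, the telomerase RNA, which has an H/ACA domain and resides in Cajal bodies, was at 8.22, 10.7 and 9.34 FPKM in 8p against 2.34, 3.65 and 2.96 FPKM (1.39 ± 0.17 SE, adjusted p = 0.0110, limma). TERT, the telomerase protein, was not called.

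Of the SCARNA genes not yet described, SCARNA7 and SCARNA9, both of box C/D class, kept within 16.8 to 32.8 and 27.1 to 43.6 FPKM over the 6 HiSeq libraries. SCARNA8, within HAUS6, went from 28.3 FPKM in 8p without DOX to 26.4 and 12.5 with DOX, so that the DOX libraries differed from each other more than the first did from No DOX. SCARNA5, SCARNA13, SCARNA20, SCARNA21 and SCARNA27 had means of 1.19 to 3.79 FPKM. On NextSeq SCARNA22 was the 1 SCARNA with a mean of at least 10 FPKM, and SCARNA7, SCARNA9L and SCARNA17 did not exceed 0.733 FPKM in any library.

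XIST silences genes near its site, so members within 30 Mb of an integration were followed. Near the 1p site (MACF1) were SNORA55, 0.283 Mb away and within PABPC4, SNORA16A, SNORA44 and SNORA61, 10.7 Mb away within SNHG12, and SCARNA1, 11.5 Mb away. Near the 12q site (C12orf34) were SNORA53, 11.1 Mb away within SLC25A3, and SNORA49, 22.4 Mb away within EP400. No member with a mean of at least 1 FPKM lay that close to the 8p site. SNORA55 was at 0 FPKM without and 6.01 FPKM with DOX in the NextSeq 1p libraries, and at 0 in both 12q libraries; on HiSeq it was at 8.61 FPKM in 1p XIST and 8.12 in the vector library. SNORA16A was at 11.5 and 18.1 FPKM, SNORA44 at 5.71 and 5.69 FPKM and SNORA61 at 43.1 and 18.4 FPKM in 1p without and with DOX. With DOX, SNORA16A was thus higher, SNORA61 lower and SNORA44 nearly level, each from 1 library a state. SCARNA1 was at 2.15 FPKM without and 0 FPKM with DOX in 1p, and at 0 in both 12q libraries. SNORA53 was at 1.24 FPKM without and 0.490 FPKM with DOX in 12q, and at 1.81 and 0.994 FPKM in 1p, where the site is on another chromosome. SNORA49 was at 0 in all 4 NextSeq libraries and, on HiSeq, at 3.44 FPKM in 12q XIST against 6.50 to 14.6 FPKM in the other 5. The ratio of 12q XIST to the others was 0.360, with a counting interval of 0.0950 to 0.969. Wherever they lie, 31.6 % of SNORA genes were lowest in 12q XIST among the 6 HiSeq libraries, beside 10.1 % of all genes.

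The libraries of the NextSeq table held less of these RNAs than those of the HiSeq table, within scales set separately and with different preparation kits. SNORA summed to 467.4 to 567.5 FPKM and SCARNA to 23.1 to 84.3 FPKM on NextSeq. RMRP was at 0.519 to 1.55 FPKM there against 321.4 to 658.1 FPKM on HiSeq, and RPPH1 at 0 to 0.720 against 19.4 to 47.3 FPKM. MIR1248, whose hairpin lies inside SNORA81, was at 125.9, 87.1, 66.4 and 0.307 FPKM in 1p without and with DOX and 12q without and with DOX, while SNORA81 was at 18.5, 5.73, 2.21 and 15.1 FPKM. The library with almost no MIR1248 was not the lowest for SNORA81, and how fragments were divided between the names could not be told from the values.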

How the data were processed

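The authors aligned reads with TopHat (Bowtie is also named) to hg18 and deposited FPKM values from Cufflinks in separate HiSeq and NextSeq tables. Versions and annotation are not given in the sources used here. Lines with a repeated symbol (739 and 882), date-like symbols (22 in each table) and 2 NextSeq lines without values were left out. Members and lists were chosen with earlier results of these data known. Comparisons used limma 3.58.1 (R 4.3.3; lmFit, eBayes with trend, two-sided, Benjamini-Hochberg over all genes tested) on log2(FPKM + 1) for genes with a mean of at least 1 FPKM in the table; this understates changes of low values. Fragments were recovered in Python 3.11.15 by fitting the step of 1 fragment against length; 95 % intervals are exact (binomial for ratios) and, with no molecular identifiers, cover counting error only. Both steps were tested on simulated data. Members were named by rule: the 10 highest per table, every call, the 5 largest and smallest SDs per table, every SCARNA of at least 1 FPKM, members within 30 Mb of a site, and their hosts; the other members named were chosen after their values were seen. ChIP-seq data were not used here.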

Additional observations from a re-analysis of the deposited data

Results flagged for a closer look

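On NextSeq 10 of the 69 members changed with DOX by at least 1 on the log2(FPKM + 1) scale in opposite directions in 1p and in 12q cells (14.5 %, beside 0.140 % of all genes). In the same direction 4 of the 69 changed by as much, beside 11 of the 11397 genes, so changes of this size were more frequent among members in both ways. With 1 library per site and DOX state the difference between sites was not tested. SNORA27 went up by 3.25 in 1p and was -3.65 in 12q, and SNORA32 was 3.49 in 1p and -3.90 in 12q. SNORA64 was 3.66 and -3.04, SNORA16B 2.78 and -3.06, and SNORA84 2.60 and -2.87 in the same order. The opposite order, lower with DOX in 1p and higher in 12q, was seen for SNORA61 (-1.18 and 4.88), SNORA51 (-2.79 and 2.79), SNORA29 (-2.53 and 2.58), SNORA62 (-3.05 and 1.79) and SNORA81 (-1.53 and 2.32). All but SNORA81 were listed at 0 in at least 1 of the 4 libraries. In 12q, where SNORA81 rose, MIR1248, whose hairpin lies inside it, went from 66.4 to 0.307 FPKM. How fragments were divided between these names could not be told.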

How the results depend on the processing

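Called members of the 8p DOX comparison numbered 22 to 30 under the other pseudocounts, the filter of 5 FPKM, centred libraries and the 8p libraries alone, and 24 without the vector library, a setting added after seeing the data. With no filter 0 members and 15 genes were called (24 and 3537 with it). Leaving out 8p DOX 1 or 2 leaves no residual degree of freedom; member medians were then -0.20 and -0.08. On NextSeq 0 members were called under every alternative with a test. In 8p cells against the others, 2 members were called with no filter and 2 at a mean of 5 FPKM, and 0 to 11 when 1 library was left out: 0 without either 8p DOX library, 2 without the vector library and 11 without 12q XIST. All genes called were then 29 to 1737, against 587, 320 with no filter and 160 with the DOX libraries alone. The median SD of members on HiSeq was 0.79 and 0.39 with pseudocounts of 0.1 and 5, 0.63 with no filter and 0.63 at 5 FPKM, 0.73 centred, 0.68 to 0.69 without 1 of the DOX pair and 0.53 without the vector library (all genes 0.19 to 0.33). On NextSeq it was 2.95, 0.59, 1.30, 1.04 and 1.40 under the first 5 (all genes 0.12 to 0.20). SNORA above all other libraries in the vector library were 55 of 76 centred and 51 scaled to 78 ribosomal protein genes, where 21.3 % and 13.6 % of all genes were above; these alternatives were chosen after seeing the data. Pairing by replicate number was not possible because fewer than 2 replicate numbers recur in both arms of any comparison. On NextSeq the DOX states were paired by integration site, which was the block, and without it 0 members and 0 genes were called. Depth is unknown on NextSeq.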
